A study of Mus musculus with 6 samples.

Results

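The genes of the primary (azurophil) granule of neutrophils and the transcription factors of the myeloid lineage were examined in hematopoietic stem cells (HSCs) sorted from mouse bone marrow (BM). The 10 members were taken by gene symbol from the 21878 rows of each library. The 4 granule genes were Mpo, Elane, Prtn3 and Ctsg, and the 6 transcription factor genes were Spi1, Cebpa, Cebpb, Cebpe, Irf8 and Gfi1. RNA-seq had been done on 3 libraries from control mice and 3 libraries from mice given insulin-like growth factor 1 (IGF1). Mice of both groups were wild type (WT), and per the study's methods the IGF1 mice had received recombinant mouse IGF1 under the skin and were sampled at day 1, with vehicle given to the controls. The comparison asks how a short exposure to IGF1 changes the transcriptome of HSCs. The study's methods list C57BL/6 mice beside several mutant lines without tying either to these libraries, and the age and the number of mice behind each library are not given in the sources used here, so p-values measure the spread between libraries, which may be technical. The labels conflict on the treatment, because the extraction protocol speaks of irradiated (IR) mice while the treatment label and the series design name IGF-1. The treatment label was followed, without use of the measured values.

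Primary granules are packed at the promyelocyte stage, the first stage of neutrophil development at which granules appear. Myeloperoxidase, encoded by Mpo, is a heme enzyme that makes hypochlorous acid, while Elane (neutrophil elastase), Prtn3 (proteinase 3) and Ctsg (cathepsin G) encode serine proteases that are stored in active form. Transcription of these genes begins in myeloid progenitors and is known to depend on PU.1 (encoded by Spi1), on C/EBP factors and on MYB. C/EBPα starts granulocyte commitment, C/EBPβ drives granulocyte production under stress, C/EBPε acts in late granulocyte maturation, IRF8 favors monocytes and dendritic cells, and GFI1 is a transcriptional repressor needed for granulocytes that also restrains HSC cycling.

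The promoters of the 4 granule genes are shown so that the sequence at their start sites, which shares a letter motif, can be set beside their levels. Each window runs from 250 bases before to 50 bases after a RefSeq transcription start site (GRCm38.p6), is written 5′ to 3′ on the strand of the gene, and has each match to GAGGAA, a core of PU.1 sites, in capitals. The windows lie at chr11:87793534-87793833 (+ strand) for Mpo, chr10:79886062-79886361 (+ strand) for Elane, chr10:79879417-79879716 (+ strand) for Prtn3 and chr14:56102525-56102824 (- strand) for Ctsg.
Mpo: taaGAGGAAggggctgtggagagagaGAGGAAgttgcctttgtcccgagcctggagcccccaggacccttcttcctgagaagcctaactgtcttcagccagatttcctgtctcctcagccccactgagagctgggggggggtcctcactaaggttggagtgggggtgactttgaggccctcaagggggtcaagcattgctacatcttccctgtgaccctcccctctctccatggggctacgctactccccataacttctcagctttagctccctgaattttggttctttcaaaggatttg
Elane: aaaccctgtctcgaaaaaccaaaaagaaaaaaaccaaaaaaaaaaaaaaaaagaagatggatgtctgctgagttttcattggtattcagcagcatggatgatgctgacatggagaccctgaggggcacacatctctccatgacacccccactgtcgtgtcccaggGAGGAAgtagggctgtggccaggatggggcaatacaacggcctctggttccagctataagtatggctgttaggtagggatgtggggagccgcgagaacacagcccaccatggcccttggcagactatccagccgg
Prtn3: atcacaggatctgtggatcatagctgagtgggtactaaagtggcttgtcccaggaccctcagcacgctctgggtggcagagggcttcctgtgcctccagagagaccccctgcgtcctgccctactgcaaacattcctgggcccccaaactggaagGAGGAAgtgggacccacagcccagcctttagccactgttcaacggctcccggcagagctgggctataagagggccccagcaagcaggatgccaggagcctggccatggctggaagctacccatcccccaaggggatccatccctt
Ctsg: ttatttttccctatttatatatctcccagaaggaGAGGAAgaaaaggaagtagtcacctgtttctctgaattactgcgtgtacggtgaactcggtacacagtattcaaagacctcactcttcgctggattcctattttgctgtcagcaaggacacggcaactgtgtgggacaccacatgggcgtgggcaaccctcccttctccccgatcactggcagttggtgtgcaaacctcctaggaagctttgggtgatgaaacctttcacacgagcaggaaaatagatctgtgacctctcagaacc
The first base of the GAGGAA match lay at position -95 from the start site in Prtn3, at -85 in Elane, at -216 in Ctsg, and at -247 and -224 in Mpo. All were on the strand of the gene, although both strands were searched. The motif was present in 28.3% of the 32851 RefSeq windows of the same length. AACNG, a MYB motif, was in all 4 windows and in 80.3% of all windows. TTNNGNAA, a C/EBP motif, was in none of the 4 windows and in 40.7% of all windows. Windows were found for 8 of the 10 members. Those of Cebpa, Cebpb, Irf8 and Gfi1 held no GAGGAA, and 1 of the windows of Gfi1 held TTNNGNAA. The motifs were searched separately and were allowed to overlap. Such matches describe letters and are not evidence of binding.

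By the GENCODE annotation of GRCm38, Prtn3 (ENSMUSG00000057729, chr10:79874476-79883174, 5 exons) and Elane (ENSMUSG00000020125, chr10:79886247-79888215, 5 exons) are neighbors on the + strand, with 3072 bases between the end of Prtn3 and the start of Elane. Mpo (ENSMUSG00000009350) has 14 exons at chr11:87793581-87804413 (+ strand). Ctsg (ENSMUSG00000040314) has 5 exons at chr14:56099881-56102574 (- strand), and Cebpe (ENSMUSG00000052435) lies on the same chromosome and strand at chr14:54710360-54712174. Spi1 (ENSMUSG00000002111, chr2:91082390-91115756) and Cebpb (ENSMUSG00000056501, chr2:167688915-167690418) are both on the + strand of chromosome 2. Cebpa (ENSMUSG00000034957) is at chr7:35119293-35121928 (+ strand), Irf8 (ENSMUSG00000041515) at chr8:120736358-120756694 (+ strand) and Gfi1 (ENSMUSG00000029275) at chr5:107716657-107726036 (- strand). The principal transcripts of Cebpa and Cebpb have 1 exon, so neither gene has an intron there.

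Expression values were FPKM, fragments scaled to the length of a gene and to the depth of a library. The steps between the values gave whole reads, between 11206746 and 15973581 per library. Groups were compared by limma after the transformation log2(FPKM + 1), which makes the changes of weakly expressed genes look smaller. The word called is used for genes past both thresholds, a 2-fold change and a Benjamini-Hochberg adjusted p under 0.05, among the 10449 genes that reached 1 FPKM in 3 or more libraries. One library stood apart. Control replicates 1 and 3 differed by over 2-fold (of FPKM + 1) in 1 gene and the IGF1 libraries from each other in 4 to 5, whereas control replicate 2 differed in 2573 to 2587 genes from the other controls but in 105 to 125 from those with IGF1. Fold changes are therefore given with and without control replicate 2. As that library was singled out by its values, larger changes and smaller p-values without it follow in part from the choice. Those p-values also rest on the small spread between control replicates 1 and 3, and they are a description. Of all genes tested, 1.98% were called higher and 4.63% lower, with a median log2 fold change of -0.18. Without control replicate 2 these shares were 12.3% and 20.6%. Of the called genes 29.96% were higher, and 65.3% when libraries were scaled to their 75th percentile, which put the median log2 fold change at 0.06.

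All 10 members passed the filter on low values. Between the IGF1 and the control libraries, 1 member, Cebpb, was called higher (against 1.98% of all genes tested) and 0 were called lower (against 4.63%) by limma. At an unadjusted p under 0.05 and the same fold, Cebpb, Elane and Prtn3 were higher (3 of 10, against 6.37% of all genes tested) and 0 members were lower (against 10.3%). Without control replicate 2, the members called higher were Elane, Prtn3, Ctsg, Cebpb and Cebpe, 5 of 10 against 12.3% of all genes tested, and 0 were called lower against 20.6%. The control and IGF1 values did not overlap in 6 of the 10 members, and did not overlap in 59.4% of all genes tested. The median log2 fold change was 1.15 over the 4 granule genes (1.71 without control replicate 2) and 0.71 (0.84) over the 6 transcription factor genes, beside -0.18 (-0.24) for all genes tested. The granule median was 0.31 under quantile normalization, 0.76 with scaling to TPM and 0.48 with length and GC trends removed, and the median of the transcription factor genes was then 0.67, 0.32 and 0.45. In bulk libraries more cells of a type and more RNA per cell cannot be told apart.

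**Figure D1:**
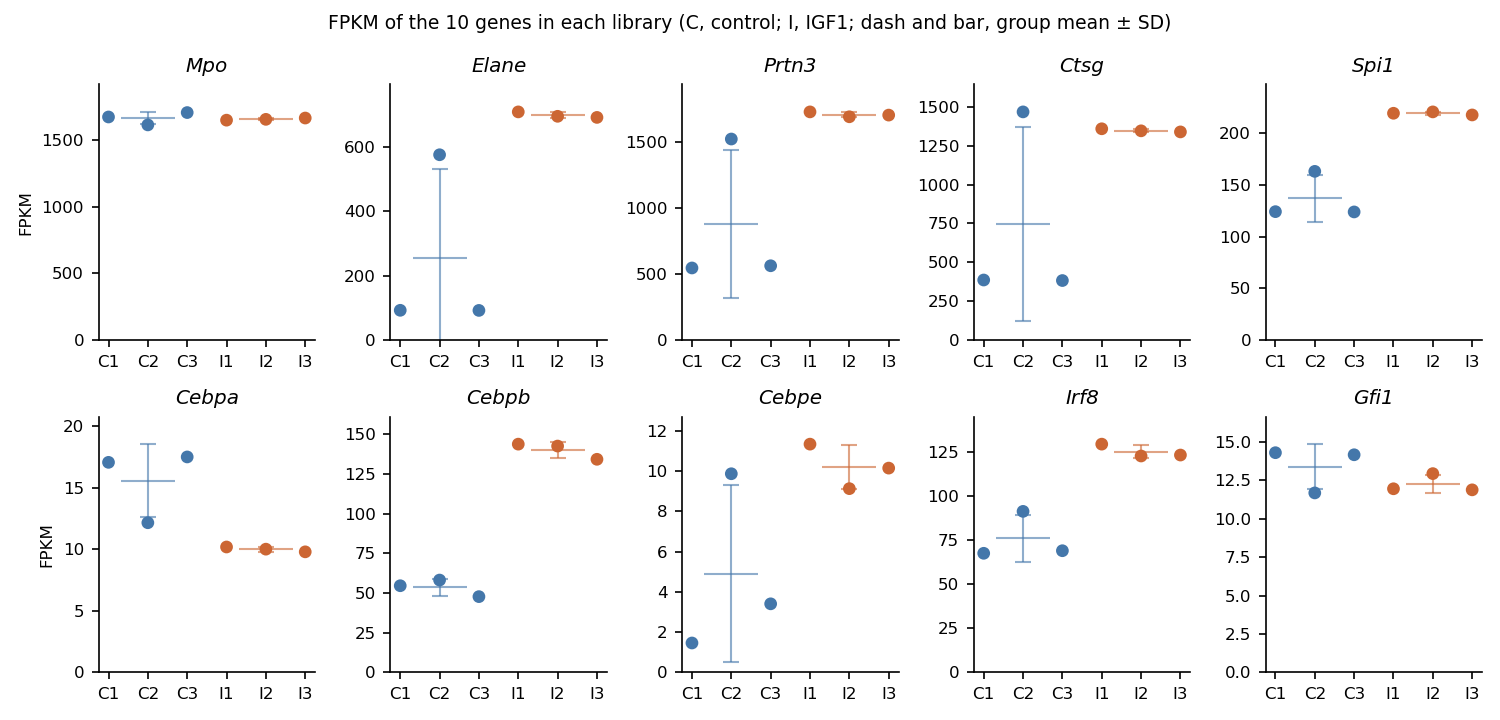
FPKM (linear axes from 0) of the 10 members in control replicates 1 to 3 (C1 to C3, blue) and IGF1 replicates 1 to 3 (I1 to I3, orange), with the mean and SD of each group as dash and bar (the bar of the Elane controls is cut at 0). Control replicate 2 lay near the IGF1 libraries in Elane, Prtn3, Ctsg and Cebpe and with the other controls in Cebpb, while Mpo was at 1613 to 1705 FPKM in all 6 libraries.

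Among the granule genes, Mpo had similar FPKM in all 6 libraries, although its sign against other genes turned with the scaling, and the 3 serine protease genes varied widely between libraries. Mpo stood at 1672, 1613 and 1705 FPKM in control replicates 1, 2 and 3 and at 1648, 1654 and 1664 FPKM in IGF1 replicates 1, 2 and 3. The groups overlapped, with the highest and the lowest value both among the controls. The log2 fold change of Mpo was -0.01 (standard error 0.19, 95% confidence interval -0.48 to 0.46, limma adjusted p = 0.979). Mpo was the most abundant member in the controls, where its mean ranked 23rd among all rows, and it ranked 66th in the IGF1 libraries. The level of Mpo relative to other genes depended on the scaling, since its log2 fold change was 0.27 with 75th percentile scaling, 0.17 with median of ratios scaling, -0.40 after scaling each library to the same sum of FPKM (TPM) and -0.93 under quantile normalization. The sum of FPKM was 466619, 635111 and 466135 in the controls and 680285, 677826 and 678752 in the IGF1 libraries. Mpo made up 0.358%, 0.254% and 0.366% of that sum in the controls and 0.242%, 0.244% and 0.245% in the IGF1 libraries.

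Elane stood at 92.8, 576 and 92.4 FPKM in control cells and at 709, 696 and 692 FPKM with IGF1. The groups did not overlap, and control replicate 2 lay much closer to the IGF1 values than to those of the other controls. The control mean was 254 ± 279 FPKM (SD, n = 3) and the IGF1 mean 699 ± 9.06 FPKM (SD, n = 3). The log2 fold change was 2.03 (standard error 0.72) and was not called (limma adjusted p = 0.0726). By the 2-sided exact permutation test p was 0.1, the smallest that 3 libraries against 3 allow. With control replicate 2 left out, Elane was called higher at a log2 fold change of 2.90 (limma adjusted p = 8.21e-13). The IGF1 mean was 7.55 times the mean of control replicates 1 and 3 and 1.21 times the value of control replicate 2.

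Prtn3, the neighbor of Elane, followed a similar course at a higher level. It stood at 547, 1525 and 564 FPKM in control cells and at 1731, 1694 and 1706 FPKM with IGF1, without overlap. Its log2 fold change was 1.14 (standard error 0.43, limma adjusted p = 0.0808; exact permutation p = 0.1), and 1.62 without control replicate 2, where it was called higher (limma adjusted p = 5.82e-12). Ctsg stood at 387, 1467 and 383 FPKM in control cells and at 1359, 1345 and 1338 FPKM with IGF1. Here the groups overlapped, because control replicate 2 held the highest value of all 6 libraries. The log2 fold change of Ctsg was 1.16 (standard error 0.55, limma adjusted p = 0.125; exact permutation p = 0.4), and 1.80 without control replicate 2, where it was called higher (limma adjusted p = 2.17e-12). Under quantile normalization the log2 fold change was 0.25 for Prtn3 and 0.37 for Ctsg. The depth behind these values was large, with 1368 recovered reads or more for Elane, Prtn3, Ctsg and Mpo in every library.

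**Figure D2:**
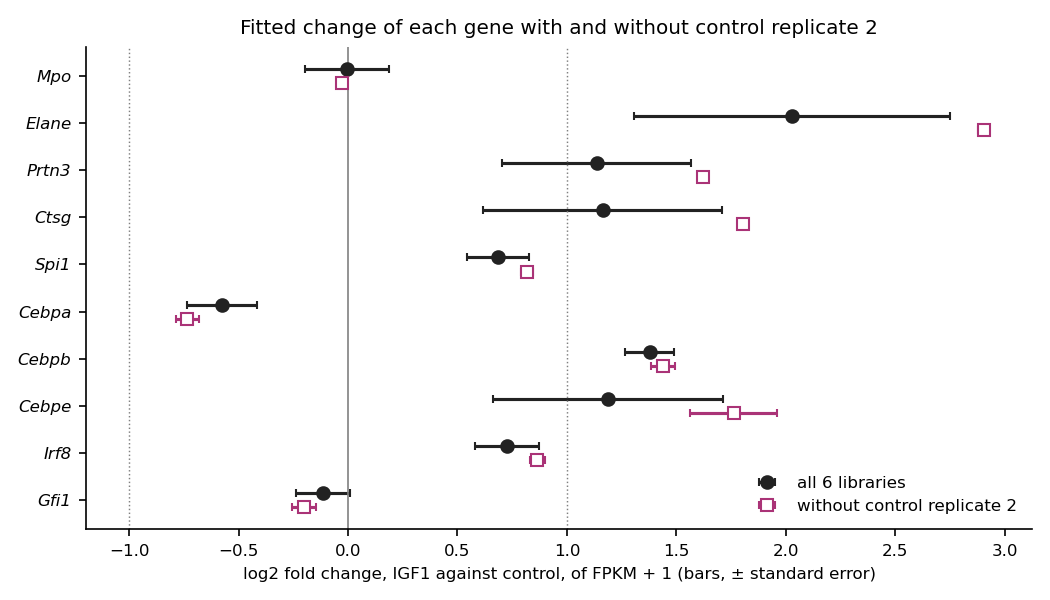
Log2 fold change of each member, IGF1 against control, on log2(FPKM + 1), with bars of ± 1 standard error from limma, for all 6 libraries (filled circles) and without control replicate 2 (open squares). Dotted lines mark a fold change of 2. Without control replicate 2 the values of Elane, Prtn3, Ctsg and Cebpe moved away from 0, while those of Mpo and Cebpb stayed close to where they were.

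Ratios within 1 library, which multiplying all its values by 1 factor cannot change (quantile normalization and the removal of length and GC trends do), gave the balance among the granule genes. They were chosen after the values were seen. The ratio of Elane to Mpo was 0.0555, 0.357 and 0.0542 in the controls and 0.430, 0.420 and 0.416 in the IGF1 libraries. The ratio of Prtn3 to Mpo was 0.327, 0.946 and 0.331 in the controls and 1.05, 1.02 and 1.03 in the IGF1 libraries. In both ratios the groups did not overlap and control replicate 2 lay just below the IGF1 libraries. The ratio of Ctsg to Mpo was 0.231, 0.910 and 0.225 in the controls and 0.824, 0.813 and 0.804 in the IGF1 libraries, so that the groups overlapped. Mpo accounted for 62.0%, 31.1% and 62.1% of the summed FPKM of the 4 granule genes in the controls and for 30.3%, 30.7% and 30.8% in the IGF1 libraries. The most abundant granule gene was Mpo in each control library and Prtn3 in each IGF1 library. The protease genes also differed among themselves, as Prtn3 exceeded Elane 5.90-, 2.65- and 6.10-fold in the controls and 2.44-, 2.43- and 2.47-fold in the IGF1 libraries. The ratio of Ctsg to Prtn3 overlapped, at 0.706, 0.962 and 0.679 and then 0.785, 0.794 and 0.784. The groups also overlapped in the ratios of Elane, Prtn3 and Ctsg to Spi1 and to Cebpb. The ratio of Mpo to Spi1 did not, at 13.5, 9.89 and 13.8 in the controls and 7.52, 7.50 and 7.65 in the IGF1 libraries.

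**Figure D3:**
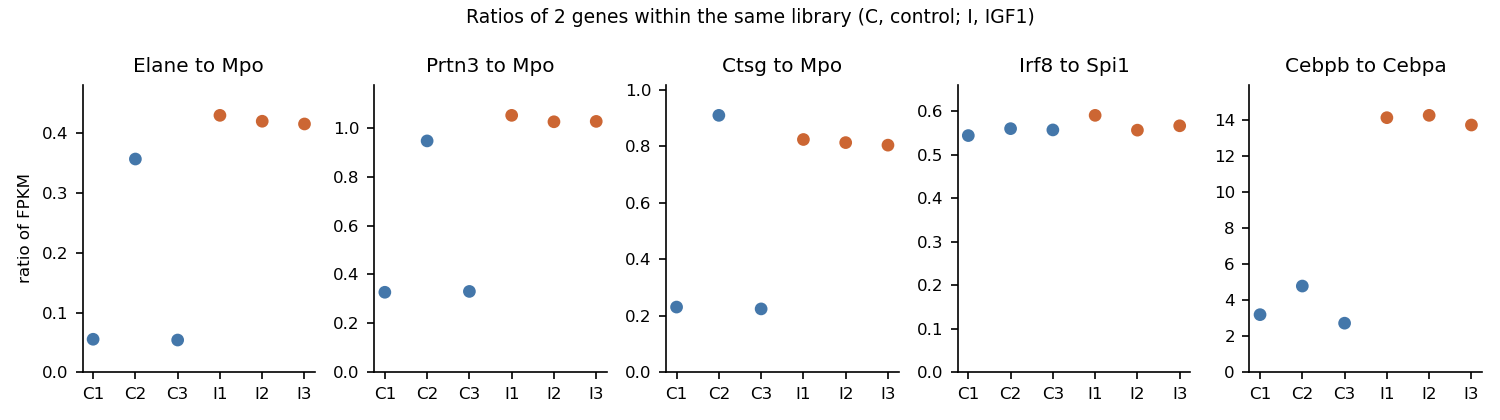
Ratio of the FPKM of 2 members in the same library (linear axes from 0) for control replicates 1 to 3 (C1 to C3, blue) and IGF1 replicates 1 to 3 (I1 to I3, orange). In the ratios to Mpo control replicate 2 sat beside the IGF1 libraries, in the ratio of Cebpb to Cebpa it sat at 4.78, below the 13.7 to 14.2 of the IGF1 libraries, and the ratio of Irf8 to Spi1 was level.

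Of the transcription factors, Cebpb was called higher. Cebpb stood at 54.6, 58.2 and 47.7 FPKM in control cells and at 144, 143 and 134 FPKM with IGF1. The groups were far apart, and control replicate 2 lay with the other controls. The log2 fold change was 1.38 (standard error 0.11, limma adjusted p = 0.0286; exact permutation p = 0.1, the smallest possible), and Cebpb ranked 3rd among all genes tested by its p. The IGF1 mean was 2.74 times the mean of control replicates 1 and 3 and 2.41 times control replicate 2. Cebpb was called without control replicate 2 as well, at a log2 fold change of 1.44 (limma adjusted p = 3.80e-09). The call was lost without control replicate 1, without control replicate 3 and without any 1 of the IGF1 libraries, where 0 genes in the whole table were called, although the log2 fold change stayed between 1.299 and 1.41 (limma adjusted p = 0.141 to 0.164). Cebpb is a GC-rich gene, at 67.2% GC in its transcript, above 99.8% of the genes compared. With trends on length and GC content removed from each library, an alternative chosen after the data were seen, its log2 fold change was 0.57 (limma adjusted p = 0.0547) and was not called.

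Cebpa, the factor of granulocyte commitment, stood at 17.1, 12.2 and 17.5 FPKM in control cells and at 10.2, 10.02 and 9.80 FPKM with IGF1. Every IGF1 value lay below every control, with control replicate 2 in between. Its log2 fold change was -0.58 (standard error 0.16, limma adjusted p = 0.0521), and -0.73 without control replicate 2, under the fold threshold in both. It was between -0.97 and -0.24 under the 19 alternatives. As Cebpa and Cebpb had values on opposite sides, their ratio separated the groups widely. Cebpb exceeded Cebpa 3.20-, 4.78- and 2.73-fold in the controls and 14.1-, 14.2- and 13.7-fold in the IGF1 libraries. In this ratio control replicate 2 was nearer the other controls than the IGF1 libraries.

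Spi1 and Irf8 encode a pair of factors that bind DNA together at many myeloid genes, and they varied together here. Such a course was common, as 1300 tested genes had a Pearson r over 0.95 with Spi1. Spi1 stood at 124, 163 and 124 FPKM in control cells and at 219, 220 and 218 FPKM with IGF1, and its log2 fold change was 0.69 (standard error 0.14, limma adjusted p = 0.0388). Irf8 stood at 67.6, 91.4 and 69.0 FPKM in control cells and at 130, 123 and 123 FPKM with IGF1, and its log2 fold change was 0.73 (standard error 0.14, limma adjusted p = 0.0369). In neither gene did the groups overlap, and in both control replicate 2 lay between the others. Both passed the adjusted p but not the fold threshold, also without control replicate 2 (log2 fold changes of 0.82 and 0.86). Neither passed the adjusted p without any 1 of the other libraries (limma adjusted p = 0.148 to 0.164 for Spi1 and 0.147 to 0.164 for Irf8). With scaling to TPM the limma adjusted p was 0.0577 for Spi1 and 0.0539 for Irf8. The ratio of Irf8 to Spi1 was 0.545, 0.560 and 0.557 in the controls and 0.591, 0.557 and 0.567 in the IGF1 libraries, with overlapping groups. With length and GC trends removed the log2 fold change was 0.45 for Spi1, and 1.06 for Irf8, which was then called (limma adjusted p = 0.0445).

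Cebpe, the late granulocyte factor, was the lowest member in the controls, at 1.46, 9.87 and 3.41 FPKM, and stood at 11.3, 9.13 and 10.1 FPKM with IGF1. Control replicate 2 lay within the range of the IGF1 libraries, so the groups overlapped. These values rested on 29, 141 and 68 recovered reads in the controls and 174, 128 and 162 in the IGF1 libraries. On the log2 scale Cebpe differed by 1.19 (standard error 0.52, limma adjusted p = 0.110; exact permutation p = 0.2), and 1.76 without control replicate 2, where Cebpe was called higher (limma adjusted p = 1.36e-05). Gfi1 stood at 14.3, 11.7 and 14.2 FPKM in control cells and at 11.9, 12.9 and 11.9 FPKM with IGF1. The groups overlapped, with control replicate 2 the lowest of all. The log2 fold change of Gfi1 was -0.11 (standard error 0.12, limma adjusted p = 0.452), and -0.20 without control replicate 2 (limma adjusted p = 0.00646), under the fold threshold. Its sign changed with scaling, at 0.22 under quantile normalization, 0.14 with 75th percentile and 0.05 with median of ratios scaling.

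The order of levels differed between the groups. By the control means it ran Mpo, Prtn3, Ctsg, Elane, Spi1, Irf8, Cebpb, Cebpa, Gfi1 and Cebpe. The place of Elane above Spi1 came from control replicate 2 (576 FPKM against 163 FPKM). In control replicates 1 and 3 Elane (92.8 and 92.4 FPKM) lay below Spi1 (124 FPKM in each). By the IGF1 means it ran Prtn3, Mpo, Ctsg, Elane, Spi1, Cebpb, Irf8, Gfi1, Cebpe and Cebpa. Among the IGF1 libraries the only neighbors in this order whose values overlapped were Cebpe and Cebpa. Among the controls those of Prtn3 and Ctsg, Ctsg and Elane, Elane and Spi1, and Cebpa and Gfi1 overlapped, and Gfi1 at 11.7 to 14.3 FPKM lay above each Cebpe value. The 3 protease genes are short, with transcripts of 984 bases for Elane, 1025 for Prtn3 and 1002 for Ctsg, at about the 5th percentile of length, against 2750 bases for Mpo. With length and GC trends removed the log2 fold change was 1.27 for Elane, 0.28 for Prtn3, 0.68 for Ctsg and 0.08 for Mpo, and none of these 4 was called.

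The genes most like Mpo over the 6 libraries, by Pearson r of log2(FPKM + 1), were Rcor2 (r = 0.981), Sorbs3 (r = 0.980), Gm38525 (r = 0.978), Dennd1c (r = 0.977) and Nob1 (r = 0.975). Over 0.95 there were 34 genes. For Spi1 there were 1300 genes over 0.95, led by Bcl7a and Taldo1 (r = 0.9998 for each), Syf2 (r = 0.9992), Borcs7 (r = 0.9990) and Mblac1 (r = 0.9989). These points share their libraries and depth, and with 6 points of which 5 fall into 2 tight sets the values are a description. None of these genes is a member.

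Lists of related genes were read from the same fit. Of 16 genes for granule processing, storage and protease inhibitors, 0 were called in either direction by limma (against 1.98% higher and 4.63% lower of all genes tested), the median log2 fold change was -0.17, and the groups did not overlap in 6 (against 59.4%). At an unadjusted p under 0.05 with the same fold, Slpi and Cyba (higher, against 6.37% of all genes tested) and Ctsc (lower, against 10.3%) were past the threshold. Slpi, an inhibitor of elastase and cathepsin G, stood at 15.2, 84.3 and 11.9 FPKM in control cells and at 131, 127 and 128 FPKM with IGF1 (log2 fold change 2.31, limma adjusted p = 0.0575). Ctsc encodes the peptidase that activates the granule serine proteases. It lay on the other side, at 19.2, 4.26 and 18.5 FPKM in control cells and 2.83, 2.79 and 2.90 FPKM with IGF1 (log2 fold change -1.73, limma adjusted p = 0.0578). Cyba, a subunit of the phagocyte NADPH oxidase, stood at 208, 607 and 208 FPKM in control cells and at 775, 766 and 716 FPKM with IGF1 (log2 fold change 1.34, limma adjusted p = 0.0633). In all 3 genes control replicate 2 lay nearer the IGF1 libraries, and without it Slpi (log2 fold change 3.16) and Cyba (1.85) were called higher, against 12.3% of all genes tested, and Ctsc (-2.37) lower, against 20.6%, while the list median was -0.29.

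Of 25 other myeloid transcription factors and cofactors, 21 were expressed enough to be tested. Cbfb was called lower (1 of 21, against 4.63% of all genes tested) and 0 were called higher (against 1.98%). The median log2 fold change was -0.23, and the groups did not overlap in 12 of the 21 (against 59.4% of all genes tested). Cbfb, the partner subunit of RUNX factors, stood at 110, 38.5 and 107 FPKM in control cells and at 24.7, 27.9 and 23.7 FPKM with IGF1 (log2 fold change -1.56, limma adjusted p = 0.0483). Klf4, a monocyte factor, stood at 2.44, 12.8 and 2.47 FPKM in control cells and at 13.5 FPKM in each IGF1 library (log2 fold change 1.40, limma adjusted p = 0.0872). Meis1, a homeobox factor of HSCs, stood at 44.5, 16.8 and 45.2 FPKM in control cells and at 15.2, 13.9 and 13.8 FPKM with IGF1 (log2 fold change -1.13, limma adjusted p = 0.0675). Control replicate 2 was near the IGF1 libraries in each. Without it 1 of the 21 was called higher (against 12.3%) and 6 lower (against 20.6%), with Klf4 (log2 fold change 2.07) higher and Cbfb (-2.06) and Meis1 (-1.58) among the lower genes. Without any other single library Cbfb was not called, and its log2 fold change over the 6 omissions ran from -2.06 to -1.31. Its call was lost in 13 of the 19 alternatives. With length and GC trends removed its log2 fold change was -0.89 (limma adjusted p = 0.0559).

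Of 22 myeloid receptors and progenitor genes, all tested, Il3ra was called higher (1 of 22, against 1.98% of all genes tested) and 0 were called lower (against 4.63%). The median log2 fold change was 0.24, and the groups did not overlap in 12 of the 22 (against 59.4% of all genes tested). Il3ra, the interleukin 3 receptor α chain, stood at 2.70, 7.24 and 3.20 FPKM in control cells and at 10.7, 10.5 and 11.2 FPKM with IGF1 (log2 fold change 1.23, limma adjusted p = 0.0466). It was not called without control replicate 1, control replicate 3 or any IGF1 library, and its log2 fold change over the 6 omissions ran from 1.005 to 1.58. Plac8, a gene of early myeloid progenitors, stood at 201, 753 and 199 FPKM in control cells and at 836, 829 and 858 FPKM with IGF1 (log2 fold change 1.43, limma adjusted p = 0.0790). Fcgr3, an Fc receptor used to mark granulocyte-monocyte progenitors, stood at 4.14, 13.8 and 4.72 FPKM in control cells and at 16.6, 16.5 and 17.1 FPKM with IGF1 (log2 fold change 1.23, limma adjusted p = 0.0644). Without control replicate 2 the list held 7 genes called higher (against 12.3%) and 2 called lower (against 20.6%), with Il3ra (log2 fold change 1.58), Plac8 (2.07) and Fcgr3 (1.71) among the higher. The list did not move as a whole. Over all 6 libraries 13 of the 22 had a log2 fold change above 0. Of the 12 without overlap, 8 were higher and 4 lower with IGF1.

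**Figure D4:**
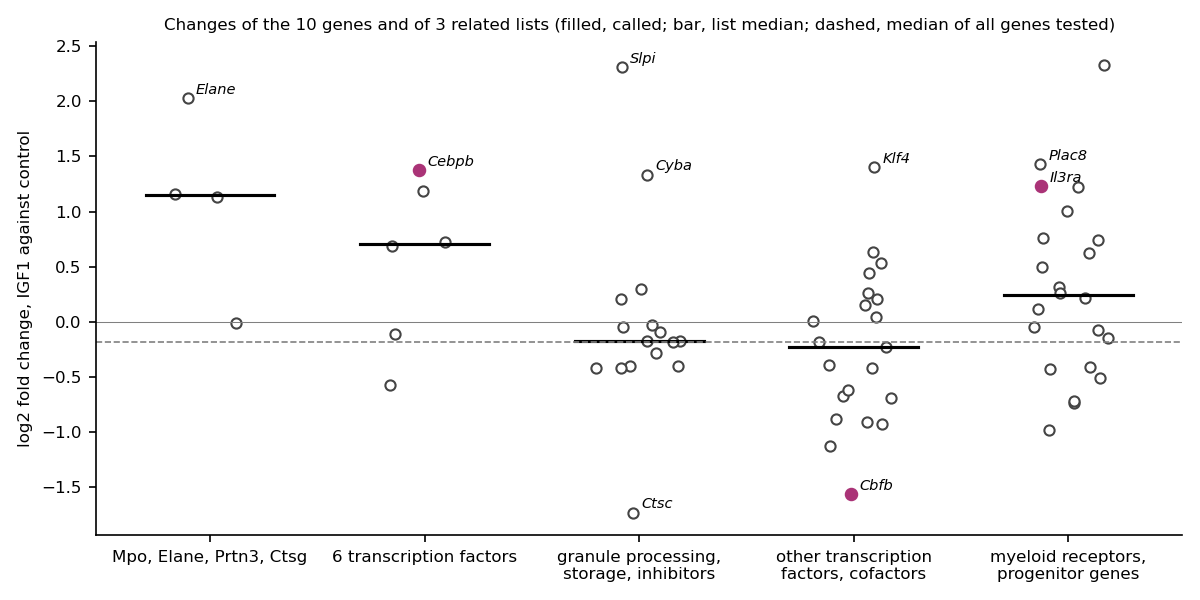
Log2 fold change (IGF1 against control) of the 4 granule genes, the 6 transcription factors and the 3 related lists, with each gene as a circle (filled where called), the list median as a bar, and the median of all genes tested (-0.18) as a dashed line. Filled circles are Cebpb, Cbfb and Il3ra, and the median of the granule genes was 1.15 with Mpo at -0.01.

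Markers of the labelled cell type and of other cells were read beside these results. The gate, per the series design, took cells negative for CD34 and Flt3 (Flk2). Cd34 nevertheless stood at 640, 265 and 634 FPKM in control cells and at 231, 238 and 230 FPKM with IGF1, and Flt3 had 117, 172 and 117 FPKM and 187, 188 and 183 FPKM. The positive gate genes Kit (105, 31.4 and 105 FPKM in control cells, 24.6, 24.4 and 24.2 FPKM with IGF1) and Ly6a (219, 615 and 231 FPKM, then 385, 387 and 374 FPKM) were present. Some HSC genes were low, with Slamf1 between 0.736 and 2.41 FPKM, Mecom between 0.672 and 4.10 FPKM and Hoxb5 under 1 FPKM in all 6 libraries. Fgd5 (0.277 to 1.68 FPKM), Ctnnal1 (0.890 to 3.77 FPKM) and Mllt3 (2.79 to 4.71 FPKM) were low as well. Others stood higher, with Procr at 11.5 to 18.7 FPKM, Hlf at 8.88 to 11.8 FPKM and Pdzk1ip1 at 20.8 to 58.1 FPKM. Transcript levels therefore do not match the labelled gate in Cd34 and Flt3.

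**Figure D5:**
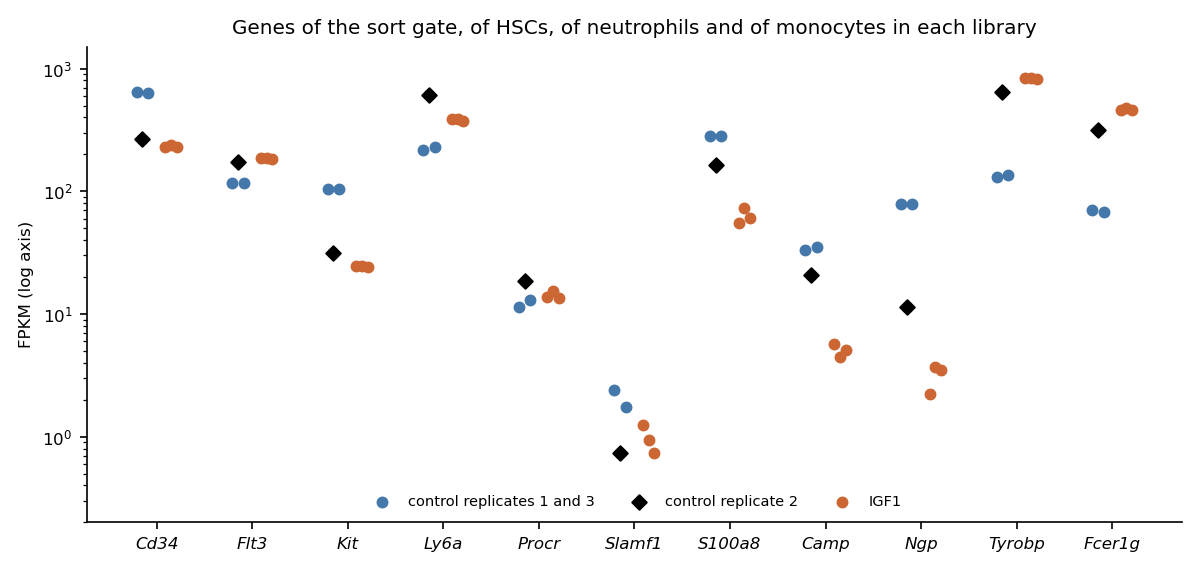
FPKM (log axis) of gate, HSC, neutrophil and monocyte genes in control replicates 1 and 3 (blue circles), control replicate 2 (black diamonds) and the IGF1 libraries (orange circles). Neutrophil genes such as Ngp were highest in control replicates 1 and 3, while Tyrobp and Fcer1g were highest in the IGF1 libraries.

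Secondary granules are made after primary granules, so their genes mark more mature neutrophils. The list read here held 13 neutrophil markers, not all of them genes of these granules, as S100a8, S100a9 and Cxcr2 are not. Their summed FPKM was 539, 256 and 538 in the controls and 88.2 to 103 in the IGF1 libraries. Elane and Prtn3 stood higher in the IGF1 libraries. The leading genes were S100a8 (284, 163 and 285 FPKM in control cells, 55.0, 72.8 and 60.9 FPKM with IGF1), S100a9 (81.8, 49.6 and 79.4 FPKM, then 14.5, 12.1 and 14.4 FPKM) and Ngp (79.0, 11.5 and 78.2 FPKM, then 2.22, 3.73 and 3.47 FPKM). Cxcr2, named with its values seen, was not lower with IGF1, at 2.60, 4.71 and 2.68 FPKM in control cells and 3.85, 4.44 and 3.70 FPKM with IGF1. Of these 13 markers, Ly6g was under 1 FPKM in all 6 libraries and 0 were at 0 in all. The 10 monocyte and dendritic cell markers summed to 377, 1331 and 381 FPKM in control cells and 1667 to 1700 FPKM with IGF1, led by Tyrobp (131, 644 and 136 FPKM, then 839, 831 and 828 FPKM), Fcer1g (70.4, 315 and 68.4 FPKM, then 456, 473 and 458 FPKM) and Flt3. The sum of this list, carried by its leading genes and Ly86, followed the protease genes across the libraries, including control replicate 2. Its other markers did not all do so, since Ccr2 was at 14.2, 13.8 and 14.2 FPKM in control cells and 12.1, 11.6 and 12.1 FPKM with IGF1, F13a1 was between 12.4 and 14.0 FPKM in all 6 libraries, and Cd209a was at 0 in each IGF1 library. Of the 10 markers 0 were at 0 in all, with Cd209a under 1 FPKM in all.

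Of the B cell list 6 markers (led by Vpreb1, Cd79b and Cd79a) summed to 89.0, 289 and 87.8 FPKM in control cells and 288 to 303 FPKM with IGF1. This sum followed the protease genes as well, with control replicate 2 at the level of the IGF1 libraries, while Ms4a1 and Pax5 were under 1 FPKM in all. Of the HSC list 11 markers summed to 382, 731 and 399 FPKM and then to 486 to 501 FPKM, a sum carried by Ly6a. Ly6a, Pdzk1ip1 and Procr were higher with IGF1 than in control replicates 1 and 3. Kit, Mecom, Fgd5, Ctnnal1, Slamf1 and Hlf were lower, and Mllt3 and Hoxb5 overlapped. The 7 genes that the gate should lack summed to 767, 444 and 761 FPKM and then to 420 to 432 FPKM. The 8 erythroid markers (led by Hbb-bt, Hba-a1 and Hbb-bs) summed to 34.1 to 96.7 FPKM in control cells and 45.6 to 51.3 FPKM with IGF1. The 7 megakaryocyte markers (led by Pf4, Itga2b and Gp9, with Gp6 at 0 in all) summed to 53.1 to 75.8 FPKM and 94.5 to 104 FPKM. Their sum was carried by Pf4 (15.6, 48.6 and 15.1 FPKM in control cells, 67.2, 73.7 and 63.1 FPKM with IGF1). Gp9 was higher as well, while Itga2b was not (32.2, 16.8 and 32.3 FPKM, then 19.3, 18.0 and 17.9 FPKM). The 8 T and NK cell markers (led by Il7r, Cd4 and Klrb1c) stayed at 7.17 to 12.3 FPKM in all. The part of other cells in the differences of the granule genes and their transcription factors was not tested.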

How the data were processed

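RNA was sequenced from BM HSCs in 3 control and 3 IGF1 libraries (TruSeq Stranded mRNA kit). The authors deposited FPKM values, 1 for each gene symbol in a library. This unit was inferred, because the values of a gene rise in whole steps that shrink with its length, and no file header states it. Reads were trimmed with fastp. The submitters' processing notes name HISAT2, StringTie and the builds GRCm38 and mm10, the study's methods name RSEM, and which of them made the values is not stated. Of the rows, 4 share a name with another row.

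Whole reads were recovered from the steps for 14838 of 14838 genes with a value in at least 2 libraries (within 0.001 reads), against 0 of 2000 jittered rows, which came to between 11206746 and 15973581 reads per library. Their scale is approximate. Control replicates 1 and 3, and the IGF1 libraries among themselves, differed by more than sampling noise (mean chi-squared per gene 1.52 and 1.69 to 1.89 over genes that held 20 or more reads in both libraries together), and each was counted as 1 library.

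Genes reaching 1 FPKM in 3 or more libraries were transformed to log2(FPKM + 1) and fitted without covariates by lmFit and eBayes (with a trend) of limma 3.58.1, run in R 4.3.3. The procedure was tested on simulated data. Adjusted p is by Benjamini-Hochberg over all genes tested. Single genes were also compared by a 2-sided exact permutation test. The members and lists were chosen with earlier results of these data known. All members were named, with 3 genes per related list (called genes first, then the largest changes without overlap), the 3 most abundant markers per list, and the 5 genes most like Mpo and Spi1. There were 19 alternatives. They covered scaling, filter, pseudocount, variance trend, replicate block, library weights, voom on the recovered reads and leaving out each library. Scaling to TPM, ratios within a library and the removal of length and GC trends (96.7% of genes tested had both values) were chosen after seeing the data. In 3 marker lists a marker that is not reported here was left out of the sum.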

Additional observations from a re-analysis of the deposited data

How the results depend on the processing

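Elane, Prtn3, Ctsg, Spi1, Cebpb, Cebpe and Irf8 had a log2 fold change above 0, and Cebpa one below 0, in all 19 alternatives. Cebpb was called in 11 of them, with log2 fold changes of 1.31 to 1.65, and had 0.57 to 1.41 in the other 8. Elane, Prtn3, Ctsg and Cebpe were each called in 2, library weights (which gave control replicate 2 a weight of 0.0137) and leaving out control replicate 2. With length and GC trends removed, Irf8 was the member called, in place of Cebpb. The sign reversed for Mpo with 75th percentile scaling (0.27), median of ratios scaling (0.17), length and GC trends removed (0.084), and for Gfi1 with quantile normalization (0.22), 75th percentile scaling (0.14) and median of ratios scaling (0.055). Leaving out 1 library put Mpo between -0.028 and 0.012. The cause was not tested. Over the 10 members and the 9 genes named by rule from the related lists, 299 of 360 comparisons kept direction and call, 31 lost a call (Cbfb 13, Il3ra 10, Cebpb 8), 23 gained one and 7 reversed.

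Genes called higher (207) became 312 with quantile normalization, 391 with 75th percentile scaling, 109 without a filter, 66 with a pseudocount of 5, 1276 with library weights, 380 with voom and 80 with scaling to TPM. Genes called lower (484) became 271 with quantile normalization, 208 with 75th percentile scaling, 278 with median of ratios scaling, 265 without a filter, 157 with a pseudocount of 5, 2159 with library weights and 151 with length and GC trends removed. Members called higher (1) became 5 with library weights and 0 with scaling to TPM, where Elane alone passed at an unadjusted p under 0.05. Leaving out 1 library gave 0 to 1281 genes higher, 0 to 2157 lower and 0 to 5 members higher. Every such omission except that of control replicate 2 gave 0 calls, with 233 to 386 genes higher and 450 to 795 lower, and Cebpb among the members, at an unadjusted p under 0.05.

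Same-numbered libraries had deviations from their group means correlated at -0.06, -0.05 and 0.01. Control replicates 1 and 3 had nearly the same correlations, at -0.057 and -0.054 with IGF1 replicate 1. The distance of control replicate 2 from the other controls shapes these deviations, so they cannot show whether libraries were paired. With a replicate block limma called 0 genes higher, 0 lower and 0 members, while 680 genes higher, 1100 lower and 3 members passed at an unadjusted p under 0.05. Lowest depth was behind Cebpe, at 29 reads in control replicate 1.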
